A study of Mus musculus with 12 samples.

Results

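Kupffer cell and macrophage genes were followed as a module of 33 genes out of 24062 genes counted in each of 12 mouse liver libraries. The genes were chosen by their symbols from general knowledge of liver macrophages, with earlier results of these data known. All 33 symbols were found, with the gene for F4/80 listed under its older symbol Emr1. The module was divided into 9 markers of resident Kupffer cells (Clec4f, Vsig4, Cd5l, Marco, Cd163, Timd4, Folr2, Slc40a1 and Spic), 12 general macrophage and leukocyte genes (Emr1, Csf1r, Cd68, Ptprc, Fcgr1, Mpeg1, Cybb, Cd14, Tlr4, Tlr2, Lyz1 and Lyz2), 7 genes of recruited or inflammatory macrophages (Ccl2, Ccr2, Ly6c2, Itgam, Itgax, Tnf and Il1b) and 5 genes of lipid-laden macrophages (Trem2, Gpnmb, Spp1, Lgals3 and Cd9). The livers came from male mice aged 14 weeks on a mixed 129SvEV-C57BL/6 background. Every mouse, controls included, carried floxed alleles of Nr5a2, which encodes the nuclear receptor LRH-1.

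The groups were 2 high-fat diet (HFD) knockouts, 4 HFD controls, 3 standard diet (SD) knockouts and 3 SD controls, and the diets lasted 6 weeks. Knockouts had received AAV8-Cre, an adeno-associated virus that carries the Cre recombinase. The series' description gives AAV8-eGFP as the control virus, while the sample titles of the controls name the floxed allele alone. The labels do not name the promoter that drives Cre, nor which liver cells lost the gene. Libraries were made from total RNA of whole liver, and in such bulk samples fewer cells of a type and less RNA per cell cannot be told apart.

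Kupffer cells are the macrophages that live inside the liver sinusoids, where they take up bacteria, complement-coated particles, modified lipoproteins and worn-out red cells. They arise largely from precursors that seed the liver before birth, and Clec4f, Vsig4 and Timd4 mark them in mice. When resident cells are lost or the liver is injured, monocytes that carry the chemokine receptor CCR2 enter along a gradient of its ligand CCL2 and can turn into macrophages. In fatty liver some of these cells fill with lipid and switch on genes such as Trem2, Gpnmb, Spp1 and Cd9. LRH-1 is best known in the liver as a hepatocyte regulator of bile acid, phospholipid and lipid metabolism.

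Depth differed by diet. The 6 HFD libraries held 7463792 to 10875478 counts and the 6 SD libraries 2371167 to 3404570, so that a single count stood for 0.0907 to 0.139 CPM in HFD libraries and for 0.305 to 0.402 CPM in SD libraries. CPM, the unit of level used throughout, are counts scaled to library size after TMM normalization, which corrects for a few highly expressed genes taking up reads. The share of counts on 84 cytosolic ribosomal protein genes also followed diet, at 0.711% to 0.842% in HFD libraries and 0.142% to 0.190% in SD libraries, so diet and the making or sequencing of the 2 sets of libraries cannot be told apart. Nr5a2 itself did not check the labels. It stood at 69.1 and 84.5 CPM in HFD knockouts against 77.0, 74.5, 64.3 and 66.8 CPM in HFD controls, and at 95.3, 100.1 and 94.7 CPM in SD knockouts against 84.4, 74.8 and 85.8 CPM in SD controls. The count of the whole gene was thus no lower in libraries labelled knockout. Which exons are floxed is not given in the labels, and reads outside the deleted part would still be counted.

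A single HFD control and a single SD knockout stood apart in these genes, and the HFD control also over all tested genes. On the second principal component, an axis of shared variation over all tested genes, HFD control 1 was at -3.00. The other HFD controls were at 16.6, 10.3 and 16.8, and the HFD knockouts at -22.5 and -18.8. How many of all genes were highest in each library was not counted. HFD control 1 was the highest of the 4 HFD controls for 27 of the 33 members, including 9 of 9 resident markers, 10 of 12 general genes, 5 of 7 recruited genes and 3 of 5 lipid-laden genes. Its level was a median of 1.83 times the median of the other 3 HFD controls over the 33 members. The members summed to 1112 CPM in HFD control 1 against 551 to 760 CPM in the other 3 HFD controls. Markers of T and NK cells were highest in it for 8 of 12 genes, while markers of hepatocytes were highest in it for 2 of 7. The liver endothelial markers, which share the sinusoid with Kupffer cells, were highest in it for 3 of 9, and stellate cell markers for 5 of 10. Of 18 Kupffer genes outside the 33 members, 9 were highest in HFD control 1. Their sum of 703 CPM there was below the 851 CPM of HFD control 3. Of 23 other myeloid genes, 14 were highest in HFD control 1. Among SD knockouts, SD knockout 2 was the highest for 6 of 7 recruited genes and 4 of 5 lipid-laden genes, but for 2 of 9 resident markers. Several of these ranks rest on few counts. Summed over the SD knockouts, Ly6c2 held 1 count, Trem2 3, Gpnmb 6, Ccl2 8, Cd9 9 and Itgax 10. In SD knockout 2, 1 count stood for 0.400 CPM, against 0.333 and 0.348 CPM in the other SD knockouts.

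The resident markers had a higher median level than the recruited and inflammatory genes. Levels between genes were compared per kilobase of transcript, using the length of the longest GENCODE transcript. The resident markers had a median of 5.98 CPM per kilobase in HFD controls and 6.33 in SD controls. Vsig4, the complement receptor CRIg, was the highest of them, at 44.1 in HFD controls and 54.5 in SD controls. The recruited and inflammatory genes had a median of 0.330 CPM per kilobase in HFD controls and 0.239 in SD controls. Il1b, which encodes interleukin-1 beta, was the highest of those, at 2.47 in HFD controls and 4.46 in SD controls. Trem2, a lipid receptor of lipid-laden macrophages, had the lowest value of the lipid-laden genes in all 4 groups, at 0.0213 to 0.0790 CPM per kilobase. Its rank is uncertain, as it held 1 to 7 counts a group. Its longest transcript has 4784 bases, and a shorter one would give a higher value. Spp1, which encodes the secreted protein osteopontin, was the highest of the lipid-laden genes at 27.7 to 73.0. It is also made by bile duct cells.

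Low counts limited what could be tested. Of the 33 members, 28 passed the filter on low counts (edgeR's rule, with a minimum of 10 counts), and 12015 genes passed in all. The 5 that did not pass were Ly6c2, Itgax, Tnf, Trem2 and Gpnmb, which are all recruited or lipid-laden genes. Tnf, the gene of tumor necrosis factor, had 2 and 4 counts in HFD knockouts and 3, 2, 0 and 3 counts in HFD controls. Trem2 had 1 and 2 counts in HFD knockouts and 2, 2, 1 and 2 counts in HFD controls. Ly6c2, a marker of inflammatory monocytes, had 0 and 5 counts in HFD knockouts and 6, 2, 5 and 0 counts in HFD controls. On SD each of these 3 genes had no more than 3 counts summed over a group. The 3 SD control libraries had 0 counts of Ly6c2 in all, which allows up to 0.360 CPM, and the 3 SD knockout libraries had 0 counts of Tnf, which allows up to 0.358 CPM. These limits cover counting error only.

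The first question was whether loss of LRH-1 moved the resident Kupffer markers on either diet. It did not in a way that passed the test. On each diet 0 of the 28 tested members were called in either direction by edgeR's quasi-likelihood test with Benjamini-Hochberg adjustment over all 12015 genes (adjusted p under 0.05). Of the 12015 genes tested, 1.04% passed as higher and 1.66% as lower on HFD, and 1.44% passed as higher and 2.94% as lower on SD. At those shares few of 28 members would be called, so the count of 0 is near the background and says little about the members. DESeq2 also called 0 members on either diet. At an unadjusted p under 0.05, 2 members remained on HFD (Cd14 and Mpeg1), or 7.14% against 14% of all tested genes, and 3 on SD (Cd163, Cd9 and Spp1), or 10.7% against 17.6% of all tested genes. The smallest adjusted p of any member was 0.25 on HFD and 0.216 on SD. The test of the difference between the diets' knockout effects called 0% of all genes higher and 0% lower by edgeR, and 0 members by edgeR or DESeq2. At an unadjusted p under 0.05 it held 911 genes, Cd163 the only member among them, and DESeq2 called 33 genes over all.

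Vsig4, which lets Kupffer cells catch complement-coated bacteria, was at 59.7 and 65.6 CPM in HFD knockouts against 92.9, 43.4, 65.6 and 50.8 CPM in HFD controls. On SD it was at 80.0, 56.0 and 77.0 CPM in knockouts against 64.8, 79.6 and 89.7 CPM in controls. Knockout and control libraries overlapped on both diets. The log2 fold change was -0.02 on HFD, with a 95% interval of -0.51 to 0.48, and -0.14 on SD, with an interval of -0.64 to 0.37, by edgeR.

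Clec4f, a lectin found on Kupffer cells in mice, was at 66.8 and 69.0 CPM in HFD knockouts against 87.2, 41.8, 60.3 and 58.5 CPM in HFD controls. On SD it was at 36.3, 39.6 and 35.9 CPM in knockouts against 29.3, 39.0 and 47.6 CPM in controls. The knockout libraries lay within the spread of the controls on both diets, and the 95% intervals of the log2 fold change were -0.32 to 0.58 on HFD and -0.57 to 0.44 on SD. Cd5l, a secreted protein that supports macrophage survival, overlapped between knockouts and controls on both diets, with intervals of -0.53 to 0.57 on HFD and -0.72 to 0.41 on SD. Timd4, the phosphatidylserine receptor TIM-4 that marks long-lived Kupffer cells, had intervals of -0.34 to 0.76 on HFD and -0.34 to 0.92 on SD. For these 4 markers a change of 1 on the log2 scale in either direction lay outside both intervals.

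**Figure D1:**
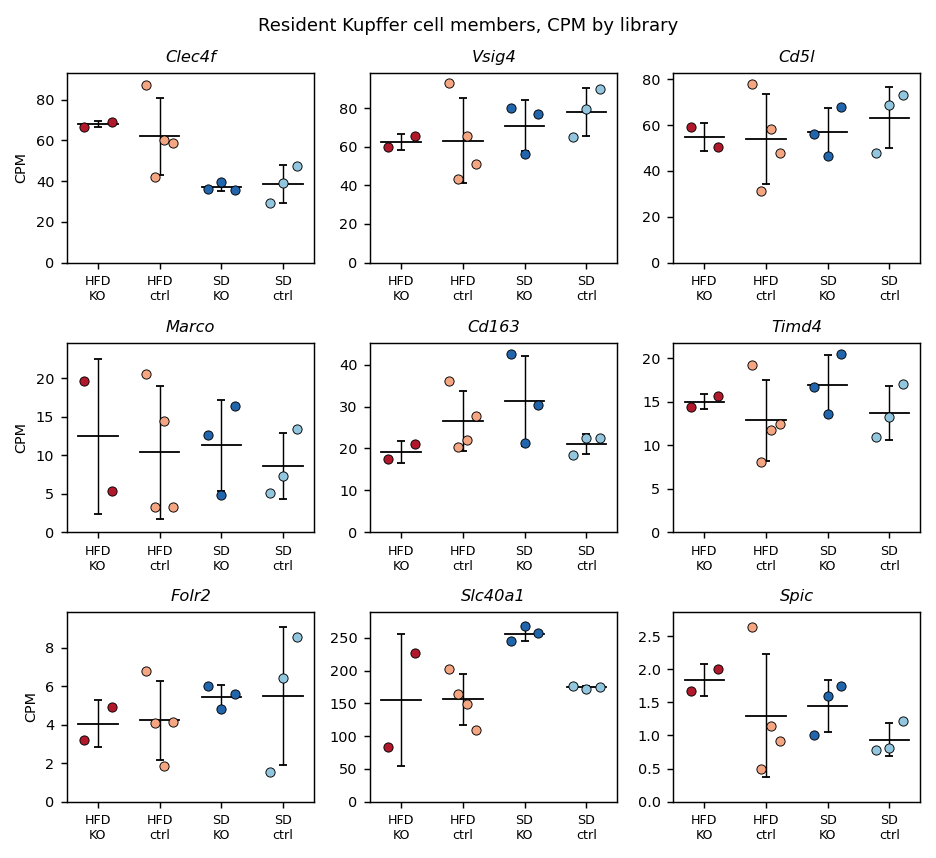
CPM of the 9 resident Kupffer markers in each library, 1 point per library, with the group mean as a line and the SD as a bar (n = 2, 4, 3 and 3 from left to right; KO, knockout; ctrl, control). Vsig4, Cd5l and Timd4 overlap between groups, the group means of Clec4f are higher on HFD, and the 3 SD knockouts stand above the 3 SD controls for Slc40a1.

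Slc40a1 encodes ferroportin, through which macrophages that have taken up red cells, and also hepatocytes, export iron. It was at 245, 267 and 257 CPM in SD knockouts against 177, 172 and 175 CPM in SD controls, and every SD knockout exceeded every SD control. On HFD the 2 knockouts were far apart, at 83.9 and 227 CPM, and lay either side of the controls, at 202, 164, 149.6 and 109 CPM. The SD difference did not pass the test in the fit that shares 1 estimate of spread over all groups (edgeR, log2 fold change 0.56, SE 0.27, adjusted p = 0.298). Fitted on the SD libraries alone, the same difference had an adjusted p of 0.00302.

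Cd163, the scavenger receptor for hemoglobin bound to haptoglobin, was at 17.4 and 21.1 CPM in HFD knockouts against 36.1, 20.4, 22.0 and 27.8 CPM in HFD controls. In SD knockouts it was at 42.7, 21.2 and 30.3 CPM, against 18.4, 22.5 and 22.6 CPM in SD controls. One HFD knockout was below all HFD controls, while 2 of the 3 SD knockouts were above all SD controls. The log2 fold change was -0.47 (SE 0.24) on HFD and 0.58 (SE 0.26) on SD, and the difference between the diets of -1.04 (SE 0.36) had an unadjusted p of 0.0105 and an adjusted p of 0.542 by edgeR.

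The other 3 resident markers had fewer counts. Marco, a scavenger receptor for bacteria and particles, ranged from 3.23 to 20.6 CPM over the 12 libraries, and both extremes were HFD controls. Folr2, a folate receptor of resident macrophages, was at 3.20 and 4.91 CPM in HFD knockouts against 6.81, 4.10, 1.83 and 4.16 CPM in HFD controls. Spic, the transcription factor of iron-recycling macrophages, was at 1.0, 1.60 and 1.74 CPM in SD knockouts against 0.781, 0.804 and 1.22 CPM in SD controls. None of these 3 passed the test in either knockout comparison. Over the 9 resident markers the median log2 fold change was 0.02 on HFD, with 5 positive and 4 negative, and 0.29 on SD, with 5 positive and 4 negative. Without HFD control 1 the HFD median was 0.28 over the 8 markers then tested, 7 of them positive. The median over all tested genes was -0.01 on HFD and 0 on SD.

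The 12 general macrophage and leukocyte genes had a median log2 fold change of 0.20 on HFD, with 10 positive and 2 negative, and 0.09 on SD, with 8 positive and 4 negative. Without HFD control 1 the HFD median was 0.45 over the 11 genes then tested. Emr1, the F4/80 surface protein, was at 25.7 and 16.9 CPM in HFD knockouts against 24.4, 8.94, 19.3 and 13.1 CPM in HFD controls, and at 23.3, 20.4 and 29.6 CPM in SD knockouts against 15.6, 22.1 and 27.5 CPM in SD controls. Csf1r, the receptor for the growth factor that macrophages need to survive, was at 46.5 and 46.4 CPM in HFD knockouts against 62.5, 22.3, 45.6 and 34.7 CPM in HFD controls. Knockout libraries lay inside the range of their controls for Emr1 and Csf1r on HFD, save HFD knockout 1, which was above all HFD controls for Emr1. Cd68, a glycoprotein of macrophage lysosomes, was at 11.7, 8.81 and 11.8 CPM in SD knockouts against 7.03, 8.44 and 10.1 CPM in SD controls, with overlap.

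Mpeg1, which encodes the pore-forming protein perforin-2, was at 71.8 and 58.4 CPM in HFD knockouts against 111, 63.4, 136 and 80.2 CPM in HFD controls. It was at 60.7, 53.2 and 69.0 CPM in SD knockouts against 69.1, 84.0 and 96.7 CPM in SD controls. The 3 SD knockouts were below the lowest SD control, SD knockout 3 by a small margin, and 1 of the 2 HFD knockouts was below every HFD control. Neither difference passed the test (edgeR, log2 fold change -0.59, SE 0.24, adjusted p = 0.25 on HFD and log2 fold change -0.45, SE 0.24, adjusted p = 0.352 on SD). Cybb, a subunit of the phagocyte NADPH oxidase, had a log2 fold change of 0.32 (SE 0.25) on HFD and 0.06 (SE 0.29) on SD.

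Cd14, the co-receptor that passes lipopolysaccharide to TLR4, was at 2.08 and 3.12 CPM in HFD knockouts against 2.18, 0.372, 0.916 and 0.780 CPM in HFD controls. HFD knockout 2 was above every HFD control, and HFD knockout 1 was just below HFD control 1 and above the other 3 controls. The test missed the threshold (edgeR, log2 fold change 1.22, SE 0.50, adjusted p = 0.267). Without HFD control 1 and SD knockout 2 together it passed, at 1.89 (adjusted p = 0.0292), where 1.94% of all genes were higher. Leaving out HFD control 1, the highest HFD control for Cd14, raises this change by construction. The pair of libraries was chosen after the values were seen. Without HFD control 1 alone, Cd14 did not pass the filter on low counts. Tlr4, the receptor itself, was at 4.31 and 4.58 CPM in HFD knockouts against 6.26, 2.11, 5.15 and 3.64 CPM in HFD controls, inside the controls' range. Tlr2, a receptor for bacterial lipoproteins, was at 3.47 and 2.68 CPM in HFD knockouts against 2.54, 1.61, 2.75 and 0.910 CPM in HFD controls, with 1 knockout above all controls. On SD neither passed, with log2 fold changes of -0.27 for Tlr4 and -0.27 for Tlr2. Fcgr1, the high-affinity antibody receptor, ranged from 1.17 to 7.23 CPM over the 12 libraries, and both extremes were SD controls.

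Ptprc, the CD45 protein carried by all white blood cells, was at 29.3 and 31.1 CPM in HFD knockouts against 36.4, 14.2, 16.7 and 15.7 CPM in HFD controls. HFD control 1 stood above both knockouts, and the other 3 controls stood far below them. On SD, Ptprc was at 15.3, 16.0 and 17.8 CPM in knockouts against 14.8, 16.9 and 19.8 CPM in controls, with overlap. The HFD difference did not pass the test with all 4 controls (edgeR, log2 fold change 0.53, SE 0.28, adjusted p = 0.432).

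**Figure D2:**
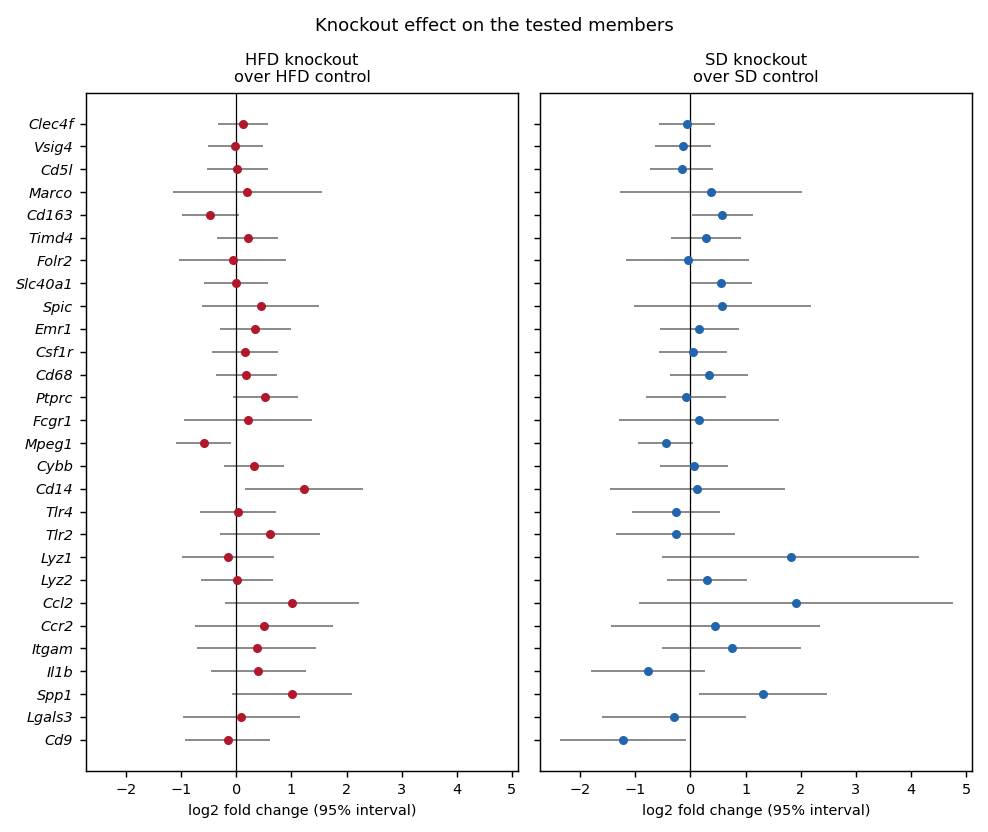
Log2 fold change of knockout over control for the 28 tested members on HFD (left) and SD (right), with 95% intervals from edgeR. No member passed the adjusted threshold. The lowly counted genes at the bottom, such as Ccl2, have the widest intervals, and Vsig4, Clec4f and Cd5l sit near 0 on both diets.

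The genes of monocyte entry were at low levels in every group. Ccl2, the chemokine that draws monocytes, was at 3.75 and 2.46 CPM in HFD knockouts against 2.90, 0.745, 1.03 and 1.17 CPM in HFD controls. On SD it was at 0.333, 2.40 and 0.348 CPM in knockouts against 0, 0.804 and 0 CPM in controls, from 8 counts and 2 counts in all. Libraries overlapped on both diets, and HFD control 1 and SD knockout 2 were the highest of their groups. The log2 fold change on HFD was 1.01 (SE 0.57, adjusted p = 0.470 by edgeR), and the ratio of summed counts on SD was 3.98 with an exact 95% counting interval of 0.794 to 38.5. The SD log2 fold change was 1.91, and 0.46 without SD knockout 2.

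Ccr2, the receptor for CCL2, was at 2.64 and 2.90 CPM in HFD knockouts against 3.54, 1.61, 1.49 and 0.910 CPM in HFD controls, with both knockouts inside the controls' range. On SD its log2 fold change was 0.45 with SD knockout 2 and -1.35 without it, and neither passed the test. Itgam, the integrin CD11b of monocytes, macrophages and neutrophils, was at 3.47 and 3.91 CPM in HFD knockouts against 5.99, 1.61, 1.95 and 1.43 CPM in HFD controls. In SD knockouts it was at 3.33, 9.61 and 5.57 CPM, against 5.08, 2.41 and 3.36 CPM in SD controls. HFD control 1 and SD knockout 2 were again the highest of their groups. On HFD the log2 fold change of Itgam was 0.37, and 1.144 without HFD control 1 (adjusted p = 0.125 by edgeR). On SD it was 0.75, and 0.30 without SD knockout 2.

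Il1b was at 2.78 and 6.03 CPM in HFD knockouts against 4.27, 3.35, 3.43 and 2.34 CPM in HFD controls, and at 3.67, 4.40 and 2.79 CPM in SD knockouts against 1.95, 7.64 and 8.55 CPM in SD controls. The libraries overlapped on both diets. Itgax, the integrin CD11c of dendritic cells and of some recruited macrophages, had 13 and 18 counts in HFD knockouts against 20, 4, 11 and 3 counts in HFD controls. It had 3, 4 and 3 counts in SD knockouts against 0, 0 and 1 counts in SD controls. Every SD knockout library thus held more counts of Itgax than every SD control library, with a ratio of 9.95 and an exact 95% counting interval of 1.41 to 432. In a fit without the filter its adjusted p was 0.187 on SD.

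The 4 tested recruited genes had a median log2 fold change of 0.45 on HFD, where all 4 were positive, and of 0.60 on SD, where 3 were positive. Without SD knockout 2 the SD median of the same 4 genes was -0.31, with 2 positive, and with Itgax, which then passed the filter, the median of 5 genes was 0.30. With no filter the 7 listed genes had medians of 0.50 on HFD and 0.73 on SD. No member passed the test in either comparison.

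Spp1 carried most of the counts of the lipid-laden genes. It was at 89.8 and 81.0 CPM in HFD knockouts against 95.2, 32.8, 19.5 and 19.5 CPM in HFD controls. On SD it was at 51.7, 189 and 88.8 CPM in knockouts against 46.1, 43.4 and 42.4 CPM in controls, and every SD knockout was above every SD control. HFD control 1 was above both HFD knockouts, and the other 3 HFD controls were below them. The log2 fold changes were 1.01 (SE 0.51, adjusted p = 0.399) on HFD and 1.31 (SE 0.54, adjusted p = 0.216) on SD by edgeR. SD knockout 2 was the highest of all 12 libraries. Without it, the SD log2 fold change was 0.67 (adjusted p = 0.655), and with the SD libraries fitted alone the SD difference passed at an adjusted p of 0.0332. It also passed without HFD control 1 (adjusted p = 0.0395).

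Bile duct cells also make osteopontin. The 5 bile duct markers examined summed to 7.59 to 10.7 CPM in HFD knockouts against 7.82 to 15.9 CPM in HFD controls, and to 8.01 to 13.3 CPM in SD knockouts against 7.81 to 9.16 CPM in SD controls. Krt19, a keratin of bile duct cells, had 1 to 6 counts in each of the 12 libraries. Markers of hepatic stellate cells, which store vitamin A and make collagen, summed to 446 to 516 CPM in HFD knockouts against 301 to 442 CPM in HFD controls, and to 475 to 558 CPM in SD knockouts against 357 to 419 CPM in SD controls. Knockout and control sums of stellate markers did not overlap on either diet, none of the 10 markers passed the test, and 8 of the 10 were highest in SD knockout 2 among SD knockouts. Their part in the Spp1 values was not tested.

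Spp1 and Ly6c2 were the only members with a promoter in the RefSeq table that held GAGGAAGT, letters bound by PU.1, the factor that macrophages depend on. Promoters here span 250 bases before to 50 bases after a transcript start, and 27 of the 33 members matched with 31 promoters. The letters were in 3.2% of all 32851 promoters on either strand and in 3 of the 31 member promoters. CAAGGTCA, letters bound by LRH-1, were in 1.56% of all promoters and in 0 of the 31. The Spp1 promoter with the PU.1 letters is shown because Spp1 was higher in every SD knockout than in every SD control. Another Spp1 promoter, at chr5:104435942-104436241, holds neither GAGGAAGT nor CAAGGTCA and is not shown. The promoter shown is at chr5:104434861-104435160 on the plus strand of GRCm38.p6. The capitals, which start 113 bases before the transcript start, mark GAGGAAGT. A match is a description of the letters and not a site.
Spp1: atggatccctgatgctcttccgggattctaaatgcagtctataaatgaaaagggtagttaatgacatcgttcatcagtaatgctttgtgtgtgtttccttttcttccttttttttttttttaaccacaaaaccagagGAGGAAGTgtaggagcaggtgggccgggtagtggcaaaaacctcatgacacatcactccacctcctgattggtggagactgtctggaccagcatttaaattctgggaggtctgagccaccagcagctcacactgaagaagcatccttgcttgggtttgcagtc

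Of the other lipid-laden genes, Cd9, a tetraspanin, was at 0.667, 2.00 and 0.697 CPM in SD knockouts against 3.12, 3.22 and 1.53 CPM in SD controls. SD knockouts 1 and 3 were below every SD control, and SD knockout 2 was inside the controls' range. The difference of -1.22 (SE 0.54) on the log2 scale had an adjusted p of 0.247 by edgeR, opposite in sign to Spp1. Without SD knockout 2 it was -1.88 (adjusted p = 0.152). On HFD Cd9 was at 2.64 and 2.12 CPM in knockouts against 3.18, 2.11, 2.75 and 2.47 CPM in controls. Lgals3, the sugar-binding protein galectin-3, was at 1.67 and 1.23 CPM in HFD knockouts against 2.27, 1.24, 0.801 and 0.910 CPM in HFD controls, with overlap. On SD its log2 fold change was -0.30. Gpnmb, a glycoprotein of lipid-filled macrophages, had 2 and 13 counts in HFD knockouts against 3, 4, 4 and 0 counts in HFD controls, and 0, 6 and 0 counts in SD knockouts against 0, 1 and 0 counts in SD controls. In both knockout groups the counts of Gpnmb lay almost wholly in 1 library.

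**Figure D3:**
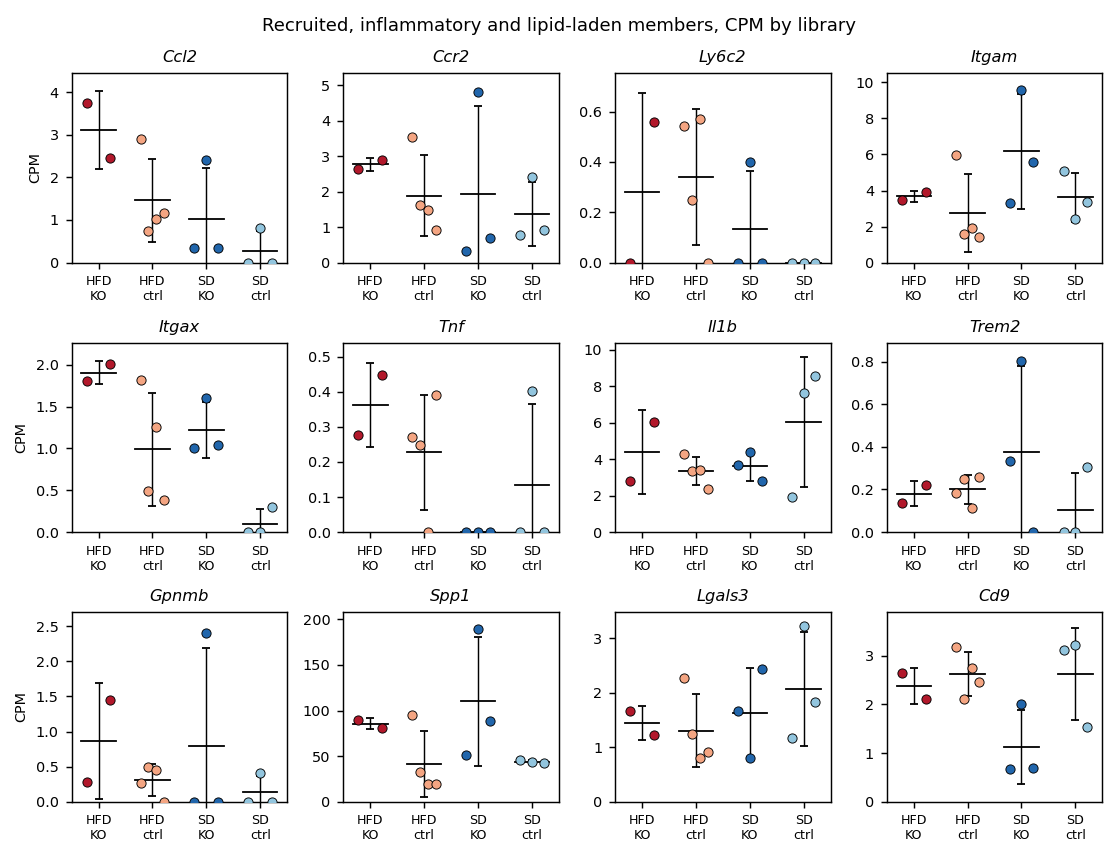
CPM of the 7 recruited or inflammatory and the 5 lipid-laden genes in each library, with the group mean as a line and the SD as a bar (n = 2, 4, 3 and 3 from left to right; KO, knockout; ctrl, control). SD knockout 2 is the highest SD knockout for Ccl2, Ccr2, Itgam, Itgax, Gpnmb and Spp1, and HFD control 1 is the highest HFD control for Ccl2, Ccr2, Itgam, Itgax and Spp1.

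Without HFD control 1, 23 members passed the filter and 2 were called higher in HFD knockouts by edgeR, at a background of 2.36% of genes higher and 3.10% lower. Ptprc then had a log2 fold change of 0.97 (adjusted p = 0.000990) and Spp1 of 1.84 (adjusted p = 0.00685). Their fitted changes with all 4 controls were 0.53 and 1.01. Of the 23 members, 20 were then higher and 3 lower in HFD knockouts, with a median of 0.43, against a median of 0.19 for 28 members with all 4 controls. These 2 medians cover unlike sets of members. HFD control 1 was the highest HFD control for 27 of the 33 members. Leaving it out thus raises most of these changes by construction, and the calls without it are no separate support. The labels give no reason to leave this library out, so the values with it stand as the main ones.

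**Figure D4:**
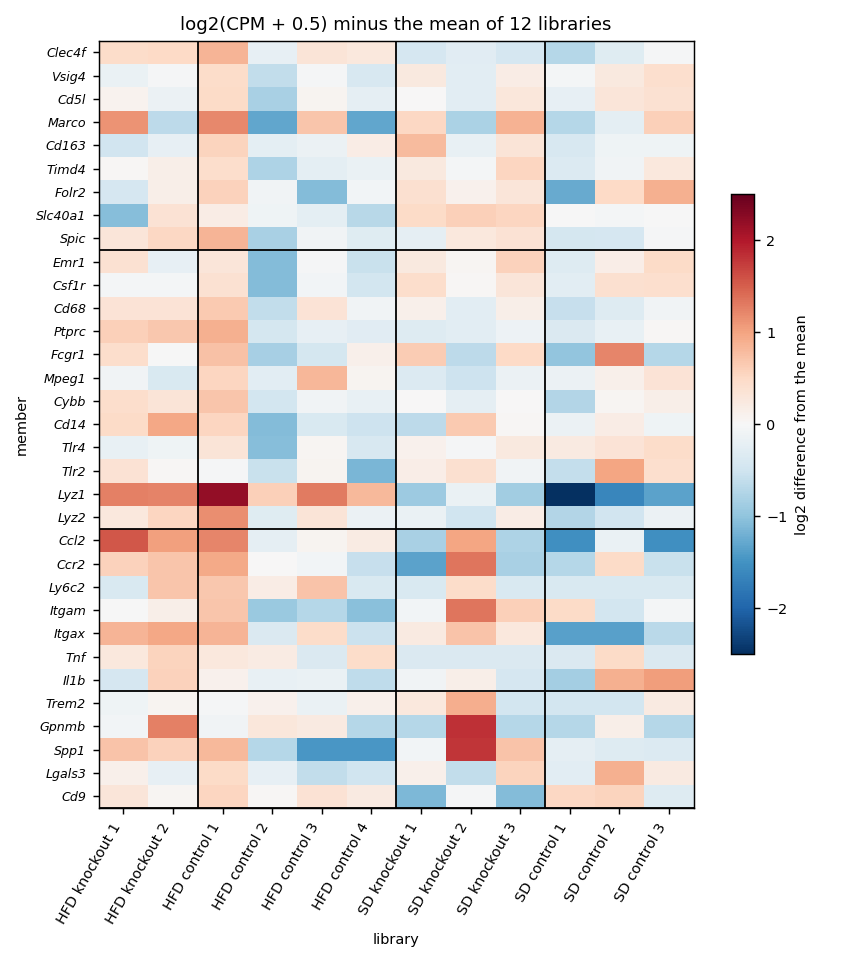
Log2 of CPM plus 0.5 for each member (rows) in each of the 12 libraries (columns), as the difference from the member's mean over all libraries. Red is above the mean and blue is below it. HFD control 1 is red for most members, SD knockout 2 is red for most recruited and lipid-laden genes, and Lyz1 is red in the 6 HFD libraries and blue in the 6 SD libraries.

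The second question was whether the macrophage genes differed between the diets. Between controls, 2 members were called higher on HFD, Clec4f and Lyz1, and 0 lower, where 16.5% of all tested genes were higher and 13.6% lower. Between knockouts, the same 2 members were called higher on HFD and 0 lower, where 14.9% of genes were higher and 11.7% lower. The members' shares, 2 of 28, were thus below the background in both directions. The comparisons share no libraries. The 28 members had a median log2 fold change of -0.08 between controls and 0.06 between knockouts, and the median of all tested genes was 0.02 and 0.03. As stated, diet cannot be told apart from the making of the libraries. Transcript length also moved with diet: between controls 21.1% of the genes with the shortest transcripts (65 to 2242 bases) were higher on HFD and 12.01% lower, against 10.1% and 19.3% of those with the longest (4884 bases or more). Across the 28 tested members Spearman's correlation of the log2 fold change with transcript length was -0.0941 between controls and -0.263 between knockouts, against -0.0986 and -0.156 across all tested genes with a length. These are descriptions across genes measured in the same libraries.

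Clec4f averaged 62.0 ± 18.8 CPM in HFD controls (SD, n = 4) and 38.6 ± 9.17 CPM in SD controls (SD, n = 3). It averaged 67.9 ± 1.5 CPM in HFD knockouts (SD, n = 2) and 37.3 ± 2.05 CPM in SD knockouts (SD, n = 3). The log2 fold change was 0.68 (SE 0.21, adjusted p = 0.0219) between controls and 0.87 (SE 0.24, adjusted p = 0.0137) between knockouts by edgeR. HFD control 2 lay below SD control 3, so the controls overlapped, and both HFD knockouts were above all SD knockouts. The call between controls was lost without HFD control 1 (adjusted p = 0.0503), SD control 1 (0.110) or SD control 2 (0.0605), and the call between knockouts was lost without HFD knockout 1 (0.90 on the log2 scale, adjusted p = 0.0520) or HFD knockout 2 (0.85, adjusted p = 0.0571). It was also lost between controls when all libraries were thinned to the smallest one (adjusted p = 0.0771).

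Set against Vsig4 in the same library, Clec4f separated the diets. The ratio of Clec4f to Vsig4 CPM was 0.920 to 1.15 in the 6 HFD libraries and 0.452 to 0.707 in the 6 SD libraries. The ratio of Cd5l to Vsig4 was 0.720 to 0.988 in HFD libraries and 0.70 to 0.882 in SD libraries, and that of Timd4 to Vsig4 was 0.180 to 0.246 in HFD libraries and 0.167 to 0.267 in SD libraries. The ratio of Lyz2 to Vsig4 was 0.898 to 1.24 in HFD libraries and 0.455 to 0.751 in SD libraries, and that of Csf1r to Vsig4 was 0.514 to 0.779 in HFD libraries and 0.620 to 0.879 in SD libraries. The groups were apart for Clec4f and Lyz2 and overlapped for Cd5l, Timd4 and Csf1r. HFD control 1, high in Clec4f and in Vsig4 alike, had a ratio of 0.938, inside the range of the other HFD libraries. These ratios were chosen after the values were seen and carry no test.

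The promoters of Clec4f and Vsig4 are shown because both genes mark the same cells and their ratio separated the libraries by diet. That of Clec4f is at chr6:83656067-83656366 and that of Vsig4 at chrX:96293389-96293688, both on the minus strand of GRCm38.p6. Neither holds GAGGAAGT or CAAGGTCA on either strand, so no letter is in capitals.
Clec4f: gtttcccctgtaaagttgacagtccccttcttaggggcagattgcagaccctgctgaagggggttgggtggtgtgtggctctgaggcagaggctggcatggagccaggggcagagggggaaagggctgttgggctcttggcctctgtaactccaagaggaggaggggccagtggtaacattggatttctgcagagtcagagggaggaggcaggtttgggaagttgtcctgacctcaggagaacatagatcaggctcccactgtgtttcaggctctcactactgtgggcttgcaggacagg
Vsig4: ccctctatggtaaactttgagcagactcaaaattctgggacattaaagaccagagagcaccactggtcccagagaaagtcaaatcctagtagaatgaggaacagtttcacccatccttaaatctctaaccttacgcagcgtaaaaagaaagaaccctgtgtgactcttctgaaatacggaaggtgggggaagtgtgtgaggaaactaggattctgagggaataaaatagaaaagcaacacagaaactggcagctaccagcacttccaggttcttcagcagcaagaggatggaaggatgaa

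Lyz1 and Lyz2 encode the P and M forms of lysozyme, the enzyme that cuts bacterial cell walls, and macrophages use mainly the M form. Lyz1 had 45 and 55 counts in HFD knockouts, 137, 30, 56 and 34 counts in HFD controls, 3, 5 and 3 counts in SD knockouts and 0, 1 and 2 counts in SD controls. Every HFD library was above every SD library, in CPM as in counts. The log2 fold change was 2.21 (SE 0.61, adjusted p = 0.0136) between knockouts and 4.18 (SE 0.73, adjusted p = 0.000445) between controls by edgeR. The SD controls held 3 counts in all, and the ratio of summed counts between controls was 20.1 with an exact 95% counting interval of 6.79 to 98.0. The call between knockouts was lost without SD knockout 1 (2.06 on the log2 scale, adjusted p = 0.0569) or SD knockout 3 (2.07, adjusted p = 0.0539).

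Lyz2 was at 61.3 and 73.3 CPM in HFD knockouts, 115, 41.0, 63.5 and 45.6 CPM in HFD controls, 45.3, 35.6 and 57.8 CPM in SD knockouts and 30.5, 36.2 and 45.5 CPM in SD controls. Both HFD knockouts were above all SD knockouts, while HFD control 2 was below SD control 3. Between controls the log2 fold change was 0.82 (SE 0.30, adjusted p = 0.0526) by edgeR, just above the threshold, and DESeq2 called it (adjusted p = 0.0301). Lyz1 made up 7.72% to 9.26% of the counts of both genes in HFD knockouts and 8.33% to 9.77% in HFD controls, against 1.78% to 5.32% in SD knockouts and 0% to 1.32% in SD controls. The exact binomial intervals of the SD libraries are wide, up to 11.98% for SD knockout 2.

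The Lyz1 values are uncertain because the genes are near copies. Their GENCODE transcripts, of 1263 and 1316 bases, were 95.8% identical over 1264 aligned bases. Of all stretches of 50 bases in the Lyz1 transcript, 16.1% also occur unchanged in Lyz2, so reads can fall on either gene, and the handling of such reads by the authors is not given. With the counts of both genes summed, the log2 fold change between controls was 0.95 (SE 0.31, adjusted p = 0.0282) and that between knockouts was 0.62 (SE 0.34, adjusted p = 0.200) by edgeR.

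The 2 lysozyme promoters, next to each other on the minus strand of chromosome 10, show how alike the genes are even upstream. That of Lyz1 is at chr10:117292819-117293118 and that of Lyz2 at chr10:117282223-117282522 in GRCm38.p6. They were 88.3% identical over 265 aligned positions, and the capitals mark the bases that differ in that alignment, 30 in Lyz1 and 31 in Lyz2. The stretch before base 37 of Lyz1 and base 36 of Lyz2 was not aligned.
Lyz1: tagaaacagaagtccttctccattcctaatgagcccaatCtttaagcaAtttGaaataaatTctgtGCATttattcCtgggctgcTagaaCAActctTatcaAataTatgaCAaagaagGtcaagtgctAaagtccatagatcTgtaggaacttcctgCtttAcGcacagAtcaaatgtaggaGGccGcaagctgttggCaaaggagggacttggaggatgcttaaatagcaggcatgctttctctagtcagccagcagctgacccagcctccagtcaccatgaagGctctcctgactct
Lyz2: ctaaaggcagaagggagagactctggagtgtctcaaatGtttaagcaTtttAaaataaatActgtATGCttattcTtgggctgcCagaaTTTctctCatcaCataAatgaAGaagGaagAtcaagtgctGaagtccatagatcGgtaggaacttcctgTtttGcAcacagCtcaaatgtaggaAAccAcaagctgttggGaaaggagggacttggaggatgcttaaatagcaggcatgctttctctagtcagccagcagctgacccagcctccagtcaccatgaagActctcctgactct

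**Figure D5:**
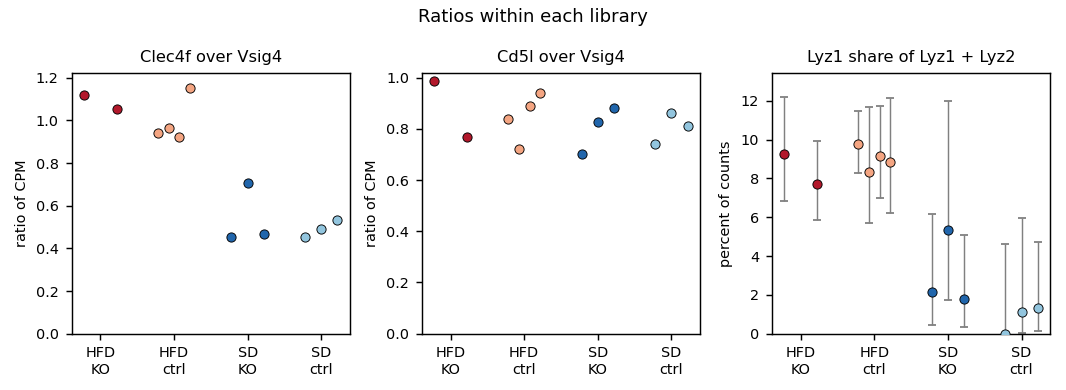
Within-library ratios of Clec4f to Vsig4 CPM, of Cd5l to Vsig4 CPM, and the share of Lyz1 in the counts of Lyz1 and Lyz2 with exact 95% binomial intervals, 1 point per library (KO, knockout; ctrl, control). The 6 HFD libraries lie at 0.920 to 1.15 for Clec4f over Vsig4 and the 6 SD libraries at 0.452 to 0.707, while Cd5l over Vsig4 overlaps.

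The other members did not pass between the diets. Vsig4 averaged 63.2 ± 21.9 CPM in HFD controls (SD, n = 4) and 78.0 ± 12.5 CPM in SD controls (SD, n = 3), with overlap (edgeR, log2 fold change -0.30, SE 0.21, adjusted p = 0.312). Csf1r averaged 41.3 ± 17.0 CPM in HFD controls and 56.3 ± 13.9 CPM in SD controls (SD, n = 4 and 3; edgeR, log2 fold change -0.44, SE 0.26, adjusted p = 0.219). Without HFD control 1 both were called lower on HFD, Vsig4 at -0.55 (adjusted p = 0.0247) and Csf1r at -0.72 (adjusted p = 0.0272), where 16.4% of all genes were higher and 13.5% lower, and 17 of 23 tested members were negative. Between knockouts the same genes had log2 fold changes of -0.18 and -0.32. Leaving out HFD control 1, the highest HFD control for most members, lowers the HFD side between controls by construction.

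Cd163 and Slc40a1, both of hemoglobin and iron handling, had log2 fold changes of -0.71 and -0.72 in HFD knockouts over SD knockouts, with adjusted p of 0.0636 and 0.0881 by edgeR. Ptprc was at 29.3 and 31.1 CPM in HFD knockouts against 15.3, 16.0 and 17.8 CPM in SD knockouts, with no overlap, at a log2 fold change of 0.88 (SE 0.33, adjusted p = 0.0598). Without HFD control 1, which enters the shared estimate of spread, Ptprc passed at 0.89 (adjusted p = 0.000704) and Cd163 at -0.71 (adjusted p = 0.0343). Between controls the log2 fold change of Ptprc was 0.28 and that of Cd163 was 0.33.

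Among inflammatory genes, Il1b had a log2 fold change of -0.86 in HFD controls over SD controls (SE 0.40, adjusted p = 0.120), with SD control 1 below all 4 HFD controls. Ccl2 had a log2 fold change of 2.54 (SE 1.07, adjusted p = 0.0864) between controls and of 1.65 (SE 0.80, adjusted p = 0.142) between knockouts by edgeR. Neither passed. The ratio of summed Ccl2 counts was 6.56 between controls with an exact 95% counting interval of 1.73 to 55.5, since the SD controls held 2 counts. The other 18 tested members had log2 fold changes of -0.85 (Tlr2) to 0.54 (Ccr2) between controls and of -0.71 (Itgam) to 1.11 (Cd9) between knockouts.

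Single libraries decided several of these calls by edgeR. Most of the fits below leave out a library that lies against the change. That raises the change by construction, so the calls are no separate support. Between controls, Lyz2 passed as higher on HFD without HFD control 2 (1.00 on the log2 scale, adjusted p = 0.0187) or HFD control 4 (0.97, adjusted p = 0.0296), and Cd68 without HFD control 2 (0.67, adjusted p = 0.0449). Il1b passed as lower on HFD without SD control 1 (-1.24, adjusted p = 0.0177). Ccl2 passed as higher on HFD between controls without SD control 2, which leaves the SD controls with 0 counts and so no fold (adjusted p = 0.0469), and between knockouts without SD knockout 2 (3.10, adjusted p = 0.0436). Also between knockouts, Cd163 passed as lower without SD knockout 2 (-0.92, adjusted p = 0.0215). Slc40a1 was at -1.60 without HFD knockout 2 and at -0.16 without HFD knockout 1, each with 1 HFD knockout left. Ptprc passed as higher without HFD control 2 (0.89, adjusted p = 0.0470), which is not in that comparison and enters the shared estimate of spread.

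Genes of the same cells outside the 33 were examined as lists. Of 18 other Kupffer genes, 0 passed in either knockout comparison, in which their median log2 fold change was 0.04 on HFD and -0.11 on SD. Between controls 1 was higher and 1 lower on HFD, where 16.5% of all tested genes were higher and 13.6% lower. Mrc1, the mannose receptor of Kupffer and sinusoidal endothelial cells, was lower (log2 fold change -0.53, SE 0.12, adjusted p = 0.00416), and Hmox1, the heme-degrading enzyme, was higher (log2 fold change 0.93, SE 0.32, adjusted p = 0.0367) by edgeR. Between knockouts, Hmox1 was higher and C6, Id3, Mrc1 and Cd207 were lower on HFD. Of all tested genes 14.9% were higher and 11.7% lower in that comparison. The log2 fold change was -1.48 for the complement gene C6 and -1.76 for Id3, a transcriptional regulator that Kupffer cells need. Of 18 tested genes among 23 other myeloid ones, 0 passed in either knockout comparison. Fcgr2b, the inhibitory antibody receptor, was lower in HFD controls than in SD controls (-0.88, adjusted p = 0.000662), and Coro1a, an actin-binding protein of white blood cells, was higher in HFD knockouts than in SD knockouts (3.53, adjusted p = 0.00910).

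Of 18 tested genes among 19 other lipid-associated macrophage genes, 1 was lower in HFD knockouts and 2 were lower in SD knockouts. Of all tested genes 1.66% were lower in HFD knockouts and 2.94% in SD knockouts. Atp6v0d2, which encodes a subunit of the proton pump that acidifies lysosomes, had 16 and 4 counts in HFD knockouts against 93, 124, 78 and 102 counts in HFD controls. It had 0, 1 and 0 counts in SD knockouts against 29, 12 and 23 counts in SD controls. Every knockout library was below every control library on its diet. The edgeR log2 fold change was -3.16 (SE 0.49, adjusted p = 0.00212) on HFD. On SD the adjusted p was 0.00256, and the ratio of summed counts was 0.0155 with an exact 95% counting interval of 0.000387 to 0.0897. Vsig4, Emr1 and Csf1r did not pass the test in either knockout comparison. Which cells of the whole liver gave the counts of the genes in this list was not tested. Ctsb, the lysosomal protease cathepsin B, was at 291, 269 and 269 CPM in SD knockouts against 332, 369.8 and 390.0 CPM in SD controls (edgeR, log2 fold change -0.40, SE 0.10, adjusted p = 0.0351), with no overlap.

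Between the diets 7 of these 18 genes were higher and 1 lower on HFD in controls, and 7 were higher and 0 lower in knockouts. Of all tested genes 16.5% were higher and 13.6% lower in controls, and 14.9% were higher and 11.7% lower in knockouts. The 4 with the smallest p in controls were Ctsd, cathepsin D, at 1.26, the tetraspanin Cd63 at 2.69, the lipid droplet coat protein Plin2 at 1.19 and apolipoprotein Apoe at 0.55 on the log2 scale. In knockouts these genes had values of 1.33, 3.45, 1.70 and 0.84. Plin2 and Apoe are made in quantity by hepatocytes too.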

How the data were processed

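Whole-liver RNA of 12 samples was sequenced, 1 library a sample. Per the labels' protocols, total RNA was taken from flash-frozen liver and made into libraries with the Nugen Ovation RNA-Seq System V2. The build mm9 and the tools TopHat2 2.1.0, DESeq2 1.14.1 and HTSeq are named, per the submitters' processing notes. Whether counting used strand, and what became of reads with several matches, is not given in the sources used here. The authors deposited raw counts, whole numbers for each gene symbol with no normalization, and these were used as deposited.

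Counts were tested with edgeR 4.0.16 in R 4.3.3: TMM normalization, filterByExpr with a minimum count of 10, quasi-likelihood fits of 4 group means over 12 libraries, and Benjamini-Hochberg adjustment over 12015 genes at 0.05. The common biological coefficient of variation was 0.153. DESeq2 1.42.0, other scalings, no filter, thinning, a replicate block, fits on the compared groups alone and leaving out each library were tried as alternatives. The scripts were tested on simulated data. Totals of 2371167 to 10875478 counts a library set the precision. The labels do not say whether samples are separate mice of separate litters, so the spread behind the p-values may be technical. The exact counting and binomial intervals and the limits from counts of 0 cover counting error only, while edgeR's intervals rest on the spread between libraries.

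All 33 members are named, some with full statistics and the others by a value or a range. Of each other macrophage list, up to 4 genes that passed with the smallest p are named, and of each marker list the summed CPM and up to 2 genes that passed. The 50-base comparison of Lyz1 and Lyz2, the ratios, the leave-outs of 2 libraries and the list medians without a library were chosen after the values were seen. The members and lists were chosen with earlier results of these data known. Transcript lengths came from GENCODE vM21 and promoters from RefSeq (GRCm38.p6). Transcripts and promoters were aligned with BLAST 2.17.0. Coordinates of the authors' build were not used.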

Additional observations from a re-analysis of the deposited data

Results flagged for a closer look

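Of the 33 members and 5 summed lists examined among the 4 HFD controls, 2 members had a library far from the other 3 by Dixon's test, in which chance flags about 1 in 20 groups. The 2 flags among 38 items are thus near the chance rate, and the items come from the same 4 libraries. Ptprc was at 36.4 CPM in HFD control 1, and the nearest other HFD control was at 16.7 CPM. Itgam was at 5.99 CPM in HFD control 1, and the nearest other HFD control was at 1.95 CPM. The gap took up 0.885 of the group's range for Ptprc and 0.887 for Itgam, above Dixon's 95% critical value for 4 samples.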

How the results depend on the processing

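Counts of called members are small, so 1 gene moves them. In SD knockouts against SD controls the 0 members called higher became 1 with no filter and 2 with only the compared groups fitted, and 0 to 1 over the leave-one-out fits. In HFD knockouts against HFD controls leaving out single libraries gave 0 to 2 called higher. Between controls they gave 1 to 4 called higher and 0 to 2 lower, and between knockouts 1 to 3 higher and 0 to 1 lower. Between knockouts the 2 members called higher became 4 with only the compared groups fitted, and the 0 called lower became 2 with no filter. Leaving out HFD control 1 and SD knockout 2 together, chosen after the data were seen, gave 3 members higher in HFD knockouts against HFD controls (1.94% of all genes were higher), 1 higher and 4 lower between controls (15.2% and 11.7% of all genes), and 5 higher and 1 lower between knockouts (13.7% and 9.94% of all genes). No called result reversed. Lyz1 between controls was the single call held under every alternative run. Deviations of same-numbered samples had an r of 0.06, 0.07 and -0.02 on SD and of 0.14 and 0.02 on HFD. Not every sample correlated best with its own number. The deviations of the 2 HFD knockouts from their group mean are mirror images of each other. With so few libraries a group the check cannot decide whether numbers pair the samples. The fit with a replicate block called 1 member lower between knockouts, Slc40a1 at -0.82 (adjusted p = 0.0453). On SD 1 count stood for 0.305 to 0.402 CPM, which limits the genes of few counts most.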

Other observations

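RNA of other immune cells was also at low levels. The neutrophil markers summed to 14.5 to 18.7 CPM in HFD knockouts, 12.8 to 16.3 CPM in HFD controls, 5.22 to 9.21 CPM in SD knockouts and 1.56 to 6.83 CPM in SD controls. In each HFD library the marker with the most counts was Cxcr2, a chemokine receptor of neutrophils. Cxcr2 had 82 and 101 counts in HFD knockouts, 98, 74, 98 and 89 counts in HFD controls, 1, 4 and 1 counts in SD knockouts and 1, 1 and 2 counts in SD controls. S100a8, a calcium-binding protein abundant in neutrophils and also made by monocytes, had 0 to 7 counts in each library. The log2 fold change of Cxcr2 was 3.94 between knockouts and 4.35 between controls (edgeR, adjusted p = 2.23e-06 and 7.59e-07). The other neutrophil markers did not follow it as a set. Of the 3 tested markers, 2 were positive and 1 negative in each of these comparisons. With no filter, the 9 markers had a median log2 fold change of 0 between knockouts and -0.34 between controls. Whether the Cxcr2 counts came from neutrophils was not tested.

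Markers of T and NK cells summed to 14.5 to 16.5 CPM in HFD knockouts, 5.33 to 16.2 CPM in HFD controls, 8.33 to 10.8 CPM in SD knockouts and 3.12 to 8.44 CPM in SD controls. Cd3e, a chain of the T cell receptor complex, was higher in HFD knockouts than in SD knockouts at 2.24 on the log2 scale (edgeR, adjusted p = 0.0210). B cell markers summed to no more than 3.97 CPM in any library. Dendritic cell markers summed to 18.2 to 20.4 CPM in HFD knockouts, 13.5 to 21.5 CPM in HFD controls, 17.1 to 19.999 CPM in SD knockouts and 14.8 to 20.4 CPM in SD controls.

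Of 8 tested genes among 15 chemokines and their receptors, 0 passed in either knockout comparison by edgeR. Their median log2 fold change was 0.70 on HFD, where 7 were positive, and -0.02 on SD, where 4 were positive. Cxcl10, an interferon-induced chemokine for T cells, had 207 and 117 counts in HFD knockouts and 16, 12 and 6 counts in SD knockouts, and passed between them at 2.35 (adjusted p = 0.00260).

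The liver endothelial markers summed to 324 to 336 CPM in HFD knockouts, 254 to 308 CPM in HFD controls, 319 to 369 CPM in SD knockouts and 276 to 369 CPM in SD controls, with Pecam1 lower in HFD controls than in SD controls (-0.50, adjusted p = 0.0330). Among stellate markers Rgs5 was higher on HFD at 0.77 between knockouts and 1.13 between controls. Hepatocyte markers summed to 143848 to 187819 CPM in HFD knockouts, 126058 to 130926 CPM in HFD controls, 136603 to 187799 CPM in SD knockouts and 138722 to 169544 CPM in SD controls, and Ttr was higher in HFD knockouts than in HFD controls at 0.64 (edgeR, adjusted p = 0.0116). Of 7 erythroid markers 6 had 0 counts in all 12 libraries, so their sum was that of Alas2, the heme synthesis enzyme of red cell precursors. As the handling of reads with several matches is not given, these counts of 0 do not show that blood RNA was absent. The sum was 42.0 to 55.6 CPM in HFD knockouts, 29.6 to 50.8 CPM in HFD controls, 26.8 to 31.0 CPM in SD knockouts and 23.7 to 32.4 CPM in SD controls. Alas2 was called higher in HFD knockouts than in SD knockouts at 0.76 by edgeR, where 14.9% of all tested genes were higher.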
